A study of Mus musculus with 8 samples.

Results

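The adrenergic receptors are the cell surface receptors for noradrenaline and adrenaline, and 8 of their genes were followed in the hypothalamus (HT): *Adra1a*, *Adra1b* and *Adra1d* of the α1 class, *Adra2a*, *Adra2b* and *Adra2c* of the α2 class, and *Adrb1* and *Adrb3* of the β class. They were chosen by their names, out of 22328 genes that could be named on the array. Every array probe that carries one of these names was taken, which gave 12 probes of the 55681 that are not controls. Of these, 10 probes of 7 genes were bright enough to be tested, and both probes of *Adra1d* were not.

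RNA of the HT was measured in 8 adult males of the C3H/HeN strain, on 1 array each. The MS group held 4 mice that underwent maternal separation each day from PND 2 to PND 14, while their dam was exposed to chronic unpredictable stress. The 4 control mice stayed with their dam. All mice were weaned on PND 21, were trained for food reward in operant chambers and were fasted before they were killed. Both groups went through these procedures, but their exposure to the reward may have differed. The paper reports more active lever presses in MS than in control males of this strain where the reward took more effort. It names unlike exposure to palatable food, and an unlike effect of fasting, as limits of its expression data in the nucleus accumbens. Their part in the values here was not tested. The labels give no transgene and no drug. The control mice are numbered 8.2, 8.4, 8.5 and 6.2 and the MS mice 7.1, 7.2, 7.6 and 5.3. What the first part of these numbers means, and whether litters or cages were shared, is not stated, and each p-value covers only the spread among the 8 mice.

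Noradrenaline reaches the HT through fibers of brainstem neurons. The α1 receptors couple to Gq and phospholipase C and excite the cell, the α2 receptors couple to Gi and lower cAMP, and the β receptors couple to Gs and raise cAMP. In the HT, noradrenaline is known to promote feeding through α2 receptors of the paraventricular nucleus and to drive the neurons that make corticotropin-releasing hormone, mainly through α1 receptors.

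Each value is the log2 of the background-corrected brightness of a probe, minus the 75th percentile of all probes on the same array. A level of 0 is therefore the brightness of the 75th percentile, and a difference of 1 between mice is a change of 2-fold. Probes bind with different strength, so the level of a probe is compared between mice and not with that of another probe, and brightness served only to pick 1 probe per gene for the lists. A probe was called well above background where the scanner software gave it that flag. The arrays found 61.2% to 71.1% of all probes well above background, and the array of MS 7.6 was the dimmest, with a 75th percentile of 567.1 units of brightness against 853.1 to 1018 on the others. All 14 markers of hypothalamic neurons fixed for the label, such as *Pomc*, *Hcrt*, *Avp* and *Oxt*, were bright enough to be tested. Control 6.2 stood apart in its pituitary genes, whose summed level was 8.03 there, 4.15 to 5.07 in the other control mice and 4.29 to 4.88 in the MS mice.

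No receptor probe passed the test for a difference between the groups. By limma, the number of receptor probes with an adjusted p under 0.05 was 0 of 10, and the number with an unadjusted p under 0.05 was also 0. Over all 37313 probes tested, 0 passed the adjusted threshold (0% of probes), 1230 had an unadjusted p under 0.05 (3.30%), and the groups of 4 did not overlap on 757 (2.03%). The groups of 4 overlapped on all 12 receptor probes. The difference was above 0 on 4 and below 0 on 6 of the 10 tested probes, and it lay between -0.18 and 0.15, where the median size of a difference over all tested probes was 0.07. The 95% interval of the difference lay within 1.5-fold both ways for 9 receptor probes and within 2-fold for all 10, while 84.1% of all tested probes had an interval within 1.5-fold. The HT was taken whole, and fewer cells that express a receptor cannot be told apart from less receptor RNA per cell.

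**Figure D1:**
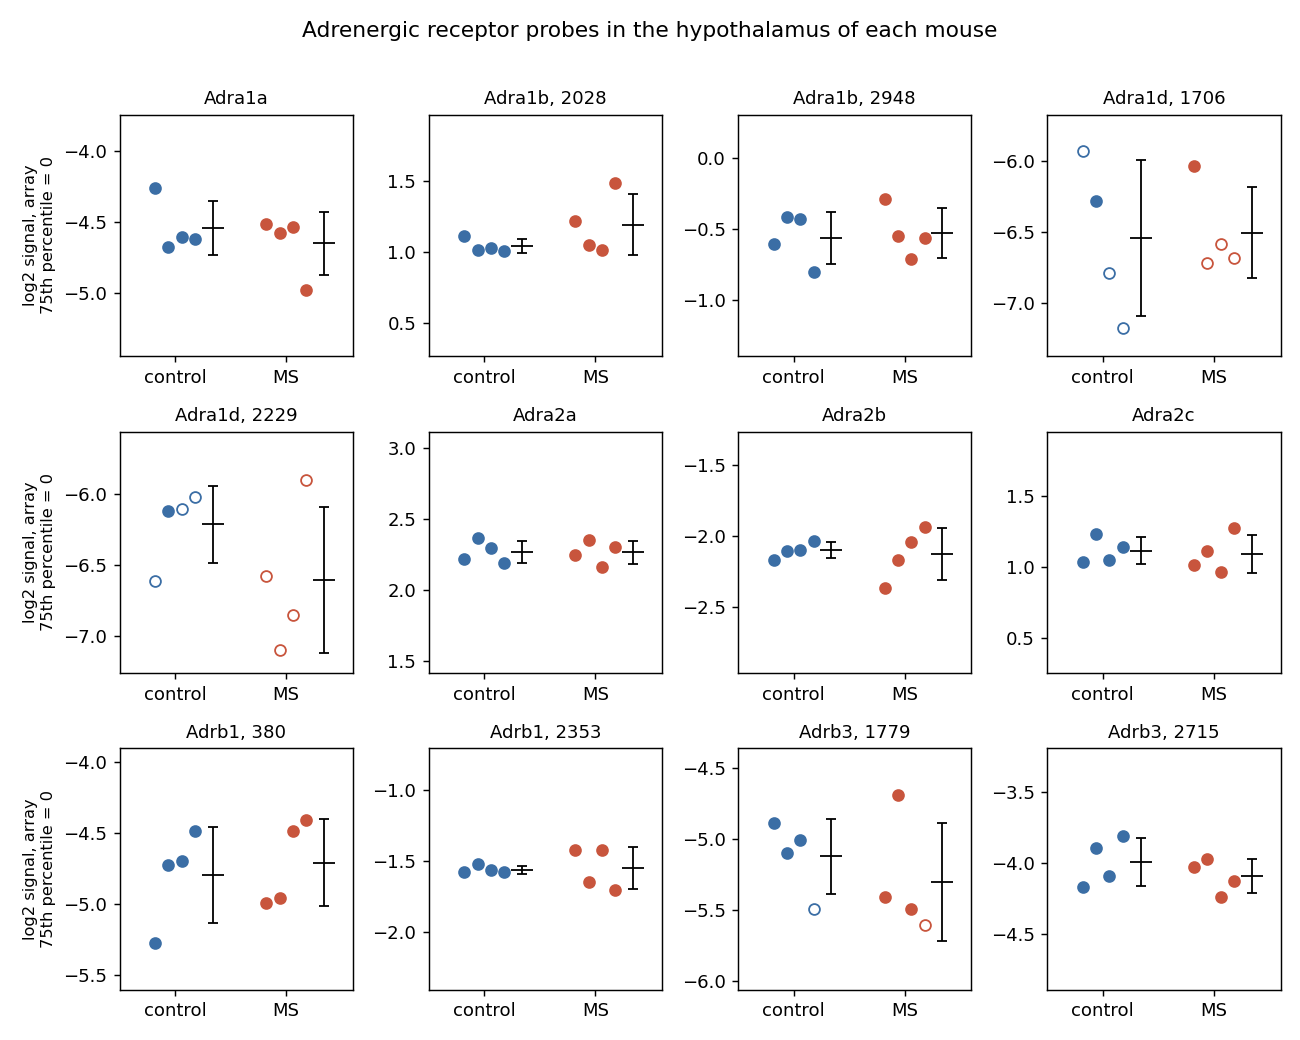
Level of the 12 receptor probes in each mouse, as log2 signal with the 75th percentile of the array at 0; the number after a gene is the first base of the probe in its transcript. Each point is 1 mouse (control blue, MS red, open where not well above background), the line and bar are the mean ± SD (n = 4), and each panel spans 1.7 log2 units; the red and blue points overlap in every panel.

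**Figure D2:**
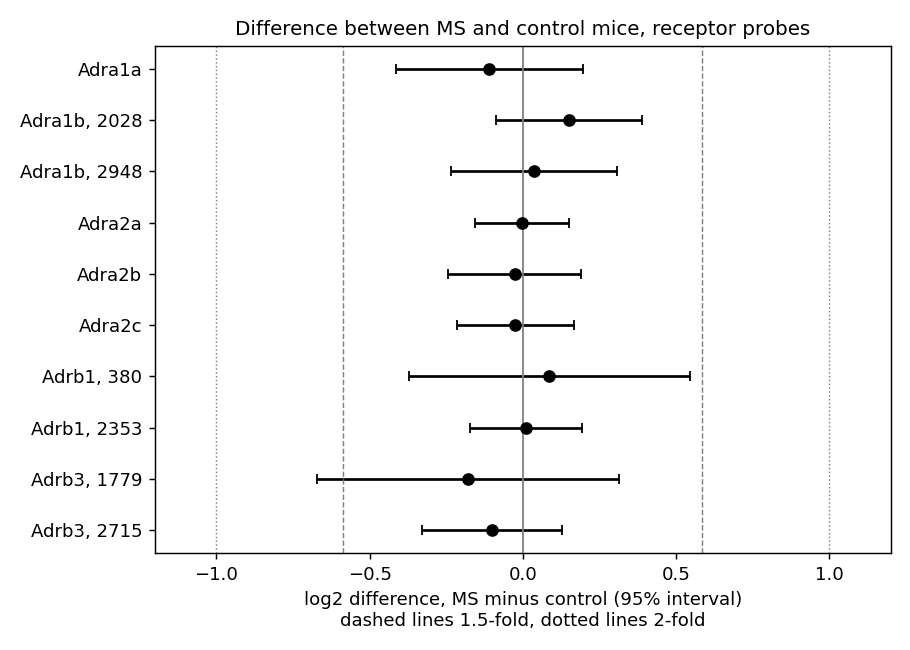
Difference between the groups for the 10 tested receptor probes, as mean log2 difference of MS minus control (points) with its 95% interval from limma (bars). All intervals include 0, and only the interval of the *Adrb3* probe at base 1779 passes the dashed lines at 1.5-fold.

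Of the α1 class, *Adra1b* had the largest positive difference among the receptors. *Adra1b* encodes the α1B receptor, which neurons and astrocytes express. It has a pair of probes, which start at bases 2028 and 2948 of its transcript (mm9 chr11:43589067-43589126 and chr11:43588147-43588206, minus strand). On the probe at 2028 the control mice had levels of 1.01 (8.2), 1.03 (8.4), 1.01 (8.5) and 1.11 (6.2), and the MS mice had 1.22 (5.3), 1.05 (7.1), 1.02 (7.2) and 1.48 (7.6). The control mice were close together, MS 5.3 and MS 7.6 lay above all of them, and MS 7.1 and MS 7.2 lay within their range. The mean was 1.04 ± 0.05 in control and 1.19 ± 0.21 in MS mice (SD, n = 4). The log2 difference was 0.15 with an SE of 0.10, or 1.11-fold with an interval from 0.940 to 1.31, and limma gave an adjusted p of 0.981. Without MS 7.6 the difference fell to 0.05. The mean deviation of the 8 astrocyte markers, taken gene by gene from the mean of the 8 mice, was also highest in MS 7.6, at 0.10 against -0.09 to 0.03 in the other mice. Over the 8 mice it correlated with this probe with r = 0.763, and with the *Adra1b* probe at 2948 with r = -0.116. Among the marker lists, the probe at 2948 correlated most with microglia (r = -0.807) and neurons (r = 0.723). Of the astrocyte markers, MS 7.6 was the highest mouse in *Aqp4*, *Aldh1l1* and *Aldoc*. It was not the highest in *Gfap*, *Slc1a2*, *Slc1a3*, *Gja1* or *Fgfr3*. MS 7.6 was also highest in the markers of endothelium (0.13), fibroblasts and meninges (0.92), ependyma and tanycytes (0.09) and thalamus (0.14). It was not highest in those of neurons, oligodendrocytes or microglia. The thalamus markers correlated with the probe at 2028 with r = 0.699. The part of any of these markers in the result was not tested.

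The second *Adra1b* probe did not follow the first. At base 2948 the control mice had levels of -0.42 (8.2), -0.43 (8.4), -0.81 (8.5) and -0.61 (6.2), and the MS mice had -0.29 (5.3), -0.55 (7.1), -0.71 (7.2) and -0.57 (7.6). Here MS 7.6 was in the middle of its group and MS 5.3 was highest. The difference was 0.04 with an SE of 0.12 and an interval from -0.23 to 0.31 (limma, adjusted p = 0.988). Over the 8 mice both probes correlated with r = 0.203.

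*Adra1a* encodes the α1A receptor, known for the contraction of smooth muscle and also present on neurons. Its probe starts at base 3983 (mm9 chr14:67352013-67352072, plus strand). The control mice had levels of -4.67 (8.2), -4.61 (8.4), -4.62 (8.5) and -4.26 (6.2), and the MS mice had -4.51 (5.3), -4.57 (7.1), -4.53 (7.2) and -4.98 (7.6). In each group 3 mice lay within 0.07 of each other and 1 mouse stood away, control 6.2 above and MS 7.6 below. The mean was -4.54 ± 0.19 in control and -4.65 ± 0.22 in MS mice (SD, n = 4), a difference of -0.11 with an SE of 0.13 and an interval from -0.42 to 0.20 (limma, adjusted p = 0.981). Without MS 7.6 the difference was -0.00033, and without control 6.2 it was -0.02. The probe was dim, with a brightness of 18.0 units in MS 7.6 and at most 46.0 in any mouse.

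*Adra1d* encodes the α1D receptor, a receptor of vascular smooth muscle. Its probes start at bases 1706 and 2229 (mm9 chr2:131371721-131371780 and chr2:131371198-131371257, minus strand). The probe at 1706 was well above background in control 8.2 and MS 5.3, at levels of -6.29 and -6.04, and not well above background in the other 6 mice. The probe at 2229 was well above background in control 8.2, at -6.12, and in no MS mouse. Neither probe was tested, and no fold is given because most values are at the limit of detection.

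Of the α2 class, *Adra2a* had the same mean in both groups within 0.002. *Adra2a* encodes the α2A receptor, the autoreceptor that limits noradrenaline release and also a receptor of target neurons. Its probe starts at base 3691 (mm9 chr19:54123363-54123422, plus strand). The control mice had levels of 2.37 (8.2), 2.30 (8.4), 2.19 (8.5) and 2.22 (6.2), and the MS mice had 2.24 (5.3), 2.35 (7.1), 2.17 (7.2) and 2.30 (7.6). The highest and the lowest of the 8 mice differed by 1.15-fold. The mean was 2.27 ± 0.08 in both groups (SD, n = 4), and the difference was -0.0015 with an SE of 0.07 and an interval from 0.899-fold to 1.11-fold (limma, adjusted p = 0.999). The SD within groups was 0.08, and 18.1% of the tested probes had a smaller one.

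*Adra2c* encodes the α2C receptor, which is known from striatal neurons and from the control of adrenaline release. Its probe starts at base 3054 (mm9 chr5:35624269-35624328, plus strand). The control mice had levels of 1.23 (8.2), 1.05 (8.4), 1.14 (8.5) and 1.03 (6.2), and the MS mice had 1.01 (5.3), 1.11 (7.1), 0.963 (7.2) and 1.27 (7.6). Both the lowest and the highest mouse were MS mice, so the control mice lay inside the range of the MS mice. The difference was -0.02 with an SE of 0.08 and an interval from -0.22 to 0.17 (limma, adjusted p = 0.988).

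*Adra2b* encodes the α2B receptor, a receptor of blood vessels and of few brain regions. Its probe starts at base 3597 (mm9 chr2:127192619-127192678, plus strand). The control mice had levels of -2.10 (8.2), -2.10 (8.4), -2.04 (8.5) and -2.17 (6.2), and the MS mice had -2.36 (5.3), -2.17 (7.1), -2.04 (7.2) and -1.93 (7.6). The control mice again lay inside the range of the MS mice, with an SD of 0.05 against 0.19. The difference was -0.03 with an SE of 0.09 and an interval from -0.24 to 0.19 (limma, adjusted p = 0.988). Whether the spread of a probe differed between the groups was not tested.

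The β class had 4 probes in all, a pair for each gene. *Adrb1* encodes the β1 receptor, the main β receptor of the heart, which forebrain neurons also express. *Adrb3* encodes the β3 receptor, known for lipolysis and heat production in fat. For each of these genes 1 probe lies in the coding part of the transcript and the other closer to its 3′ end. The sequences of the coding probes are shown because these had the widest spread between mice among the tested receptor probes. They are written 5′ to 3′, as the array files give them.

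*Adrb1*, from base 380 of the transcript (mm9 chr19:56797242-56797301, plus strand): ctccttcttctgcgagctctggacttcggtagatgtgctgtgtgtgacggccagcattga
*Adrb3*, from base 1779 of the transcript (mm9 chr8:28337864-28337923, minus strand): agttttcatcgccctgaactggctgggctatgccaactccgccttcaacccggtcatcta

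The G and C content of both sequences was 55.0%, against 36.7% in the *Adrb1* probe at base 2353 (chr19:56799215-56799274) and 35.0% in the *Adrb3* probe at base 2715 (chr8:28336268-28336327). The *Adrb1* probes are 1973 bases apart in the transcript and in the genome. The *Adrb3* probes are 936 bases apart in the transcript and 1596 in the genome, so that 660 bases between them are not in the transcript.

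On the coding probe of *Adrb1* the control mice had levels of -4.72 (8.2), -4.70 (8.4), -4.49 (8.5) and -5.27 (6.2), and the MS mice had -4.99 (5.3), -4.95 (7.1), -4.49 (7.2) and -4.41 (7.6). Control 6.2 was lowest of all mice. The difference was 0.09 with an SE of 0.20 and an interval from -0.37 to 0.55 (limma, adjusted p = 0.982), and without control 6.2 it was -0.07. On the probe at base 2353 the control mice had levels of -1.52 (8.2), -1.57 (8.4), -1.58 (8.5) and -1.58 (6.2), and the MS mice had -1.42 (5.3), -1.65 (7.1), -1.43 (7.2) and -1.71 (7.6). The control mice lay within 0.06 of each other, with 2 MS mice above and 2 below them. The difference was 0.01 with an SE of 0.08 and an interval from 0.888-fold to 1.14-fold (limma, adjusted p = 0.995). Over the 8 mice both probes correlated with r = -0.110.

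On the coding probe of *Adrb3* the control mice had levels of -5.10 (8.2), -5.01 (8.4), -5.50 (8.5) and -4.89 (6.2), and the MS mice had -5.41 (5.3), -4.69 (7.1), -5.50 (7.2) and -5.61 (7.6). It was not well above background in control 8.5 and MS 7.6. MS 7.1 was highest of all mice and the other 3 MS mice were lower than 3 of the control mice. The difference was -0.18, the lowest among the receptors, with an SE of 0.21 and an interval from 0.628-fold to 1.25-fold (limma, adjusted p = 0.981). Single mice moved it: it was -0.38 without MS 7.1 (limma, unadjusted p = 0.033), -0.30 without control 8.5, -0.11 without MS 7.2, -0.10 without control 6.2 and -0.08 without MS 7.6. On the probe at base 2715 the control mice had levels of -3.89 (8.2), -4.09 (8.4), -3.80 (8.5) and -4.17 (6.2), and the MS mice had -4.03 (5.3), -3.97 (7.1), -4.24 (7.2) and -4.12 (7.6). These levels overlapped over most of their range, and the difference was -0.10 with an SE of 0.10 and an interval from -0.33 to 0.13 (limma, adjusted p = 0.981). It was -0.04 without control 8.5, -0.05 without MS 7.2 and -0.16 without control 6.2. Over the 8 mice both *Adrb3* probes correlated with r = 0.063.

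The slide carried the 8 arrays in 2 rows, each with 2 mice per group. Control 8.2 and 8.4 and MS 5.3 and 7.2 were in row 1, and control 6.2 and 8.5 and MS 7.1 and 7.6 in row 2. For 8 of the 10 tested receptor probes the difference between MS and control had opposite signs in the 2 rows. The α2 receptors were lower in MS mice in row 1 and higher in row 2. For *Adra2a* the difference was -0.13 and 0.12, for *Adra2b* -0.11 and 0.05, and for *Adra2c* -0.15 and 0.11. *Adra1a* went the other way, at 0.12 in row 1 and -0.34 in row 2. The coding probe of *Adrb3* had the largest difference of row 1, at -0.40, and 0.04 in row 2. In row 1 alone it was the 1 receptor probe of 10 with an unadjusted p under 0.05 (limma, unadjusted p = 0.0084, adjusted p = 0.934), where 1928 of all 37313 probes had one. The signs were the same in both rows for *Adra1b* at base 2028, at 0.10 and 0.20, and for *Adrb3* at base 2715, at -0.14 and -0.06. Each of these is a difference of 2 mice from 2 mice, and whether it differed between the rows was not tested. Both MS mice of row 1 also stood apart in some of the hypothalamic neuron markers. *Hcrt*, the orexin gene, was at 3.29 in MS 5.3 and 3.36 in MS 7.2 and between 5.33 and 6.47 in the other 6 mice, and *Trh*, the gene of thyrotropin-releasing hormone, was at 3.33 and 3.32 against 3.85 to 4.71. In other markers they did not: *Agrp*, at 3.785 in MS 5.3 and 4.089 in MS 7.2, and *Npy*, at 2.740 and 2.976, lay within the range of the other 6 mice. Of the 14 markers, 9 were lower and 5 higher in MS mice. In limma 4 had an unadjusted p under 0.05, *Hcrt*, *Pmch* and *Sst* lower and *Npy* higher at 0.19, and 0 passed the test. Over all 37313 probes tested in the 8 mice, 1230 (3.3%) had an unadjusted p under 0.05. The part of these markers in the receptor differences of row 1 was not tested.

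**Figure D3:**
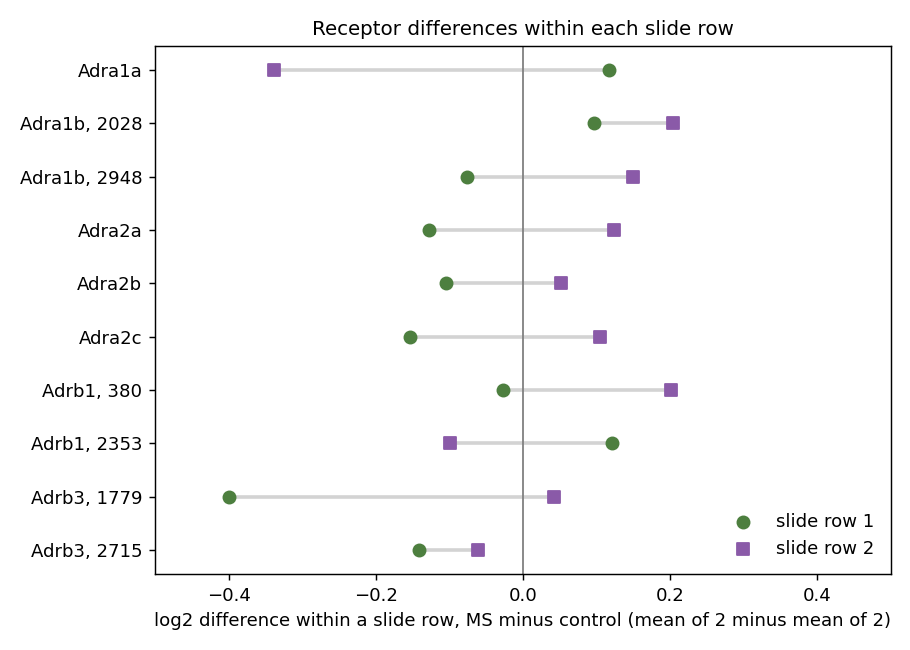
Difference of MS minus control within slide row 1 (green circles) and within slide row 2 (purple squares) for the 10 tested receptor probes, as the mean of 2 mice minus the mean of 2 mice on the log2 scale. The circle and the square lie on opposite sides of 0 for 8 probes and on the same side for *Adra1b* at base 2028 and *Adrb3* at base 2715.

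Among the mice, the extremes of the receptors fell most often to control 6.2, which was the highest or the lowest control mouse on 8 of the 10 tested probes. Control 8.5 was so on 7 probes, control 8.2 on 5 and control 8.4 on none. MS 7.6 was the highest MS mouse on 4 probes and the lowest on 3, and its array was also the dimmest. MS 5.3 and MS 7.2 were extreme on 5 probes each and MS 7.1 on 3. Every probe has a highest and a lowest mouse in each group of 4, so such counts arise in any set of probes. How often each mouse was extreme over all tested probes was not counted. The summed level of the 7 receptors, with 1 probe per gene, was 3.24 to 3.35 in the control mice and 3.20 to 3.43 in the MS mice.

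For each of the 7 receptors with a probe well above background on all 8 arrays, the 3 genes with the most similar pattern were sought by Pearson's r over the 8 mice, among 16172 genes. For *Adra2a* these were *Ccdc136* (r = 0.958), *Wdr1*, an actin-disassembly factor (r = 0.941), and *Pcsk2*, a convertase that processes neuropeptides (r = 0.930). For *Adra2c* they were *St3gal2* (r = 0.939), *A130077B15Rik* (r = 0.930) and *Pdxk*, the pyridoxal kinase (r = 0.925). For *Adra2b* they were *Slit2*, an axon guidance ligand (r = 0.974), *Pjvk* (r = 0.968) and *Ptpn11*, a tyrosine phosphatase (r = 0.950). No gene was named for more than 1 α2 receptor, but lists of 3 out of 16172 genes leave little room for a shared gene. The lists therefore do not show whether the α2 receptors vary alike. Taken directly over the 8 mice, r was 0.624 between *Adra2a* and *Adra2c* and 0.519 between *Adra2b* and *Adra2c*. Between *Adra2a* and *Adra2b* it was -0.02.

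For *Adra1b* at base 2028 the closest genes were *Lcn12* (r = 0.987), *Sart1* (r = 0.986) and *Srpx2* (r = 0.983). For this receptor 258 genes had an r over 0.9, against 4 to 30 for the other 6 receptors. Its probe was at 1.48 in MS 7.6 and at 1.01 to 1.22 in the other mice, and 1 such mouse weighs heavily on Pearson's r. By ranks, Spearman's rho was 0.786 for *Lcn12*, 0.810 for *Sart1* and 0.690 for *Srpx2*, against 0.738 to 1 for the closest genes of the other 6 receptors. For *Adra1a* the closest genes were *Thoc2* (r = 0.960), *Parp12* (r = 0.954) and *Alpk1* (r = 0.953). For *Adrb1* at base 2353 they were *Cd244a* (r = 0.967), *Rmnd5a* (r = 0.958) and *Qtrt2* (r = 0.949). For *Adrb3* at base 2715 they were *Cyp2c55* (r = 0.985), *Oprk1*, the κ opioid receptor (r = 0.966), and *N4bp2* (r = 0.945). These correlations describe 8 arrays, which also share their brightness and slide row, and they were not tested.

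The genes around the receptors were followed in 6 lists of 70 genes, of which 63 had a tested probe. None passed the test in limma. The difference was above 0 for 40 genes and below 0 for 23, with a median of 0.04 against 0.005 over all probes tested. An unadjusted p under 0.05 was found for 3 of the 63 genes, *Slc18a2*, *Phox2a* and *Pde7b*, against 3.30% of all tested probes. The groups did not overlap for 5 of the 63, against 2.03% of all tested probes: *Slc18a2*, *Gnai1*, *Prkar1b*, *Prkaca* and *Rgs2*, of which the last 2 are named because of this count, after their values were seen. The 63 are the brightest probe of each gene, so the 2 shares are not strictly alike. The gaps were narrow, with MS 7.1 nearest: 2.555 against 2.541 in control 6.2 for *Gnai1*, and 6.413 against 6.411 in control 8.4 for *Prkar1b*. For *Prkaca* it was -0.809 against -0.800 in control 6.2, and for *Rgs2* 4.574 against 4.553 in control 8.2. The smallest adjusted p of each list was 0.981.

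The list of noradrenaline synthesis, transport and breakdown had 10 tested genes of 12, with 8 above and 2 below 0 and a median of 0.08. *Slc18a2*, the transporter that loads monoamines into vesicles, had levels of 2.01 (8.2), 1.84 (8.4), 1.97 (8.5) and 1.96 (6.2) in control mice and 2.33 (5.3), 2.01 (7.1), 2.27 (7.2) and 2.07 (7.6) in MS mice. All MS mice were above all control mice, but MS 7.1 at 2.009 only just above control 8.2 at 2.008, and the difference was 0.23 with an SE of 0.09 (limma, unadjusted p = 0.030, adjusted p = 0.981). It was 0.38 in row 1 and 0.07 in row 2. *Th*, the rate-limiting enzyme of catecholamine synthesis, which hypothalamic dopamine neurons also use, had 3.17 to 3.45 in control and 3.10 to 3.50 in MS mice, a difference of -0.03 with an SE of 0.10, and leaving out 1 mouse moved it between -0.09 (without MS 5.3) and 0.04 (without MS 7.2). *Dbh*, the enzyme that makes noradrenaline from dopamine, had -5.00 to -3.88 in control and -4.63 to -4.19 in MS mice, a difference of 0.12 with an SE of 0.25. That of *Dbh* was -0.05 without control 8.5 and 0.32 without control 6.2. *Slc6a2*, the noradrenaline transporter of noradrenergic neurons, was not well above background on any of the 8 arrays.

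The regulators that specify noradrenergic neurons had 2 tested genes of 6, both below 0. *Phox2a* had levels of -3.83 (8.2), -2.93 (8.4), -2.62 (8.5) and -2.87 (6.2) in control mice and -3.28 (5.3), -4.71 (7.1), -4.35 (7.2) and -4.54 (7.6) in MS mice. MS 5.3 was above control 8.2, so the groups overlapped. The difference was -1.16 with an SE of 0.36 (limma, unadjusted p = 0.012, adjusted p = 0.981), and it was -0.43 in row 1 and -1.88 in row 2. *Gata3*, named because it was the other tested gene, after its values were seen, was well above background on 7 arrays and had a difference of -0.85 with an SE of 0.63. It rested on MS 7.1, at -7.26, and was -0.26 without this mouse, -1.297 without MS 7.6 and -0.12 with normexp background correction. The pituitary markers were lower in MS mice as well, 7 of 7 tested genes with a median of -0.84 and none past the test, with *Tshb* at -2.19 and *Pitx1* at -1.58. Control 6.2 stood apart here, with a mean deviation of these markers of 2.49. It was -0.66 to 0.42 in the other control mice and -1.01 to -0.10 in the MS mice, so these overlapped. MS 7.1 was lowest of the 8 mice in *Pitx1*, at -3.35, and control 6.2 highest, at 1.48, and the part of these markers in the differences of *Phox2a* and *Gata3* was not tested.

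The genes that carry the receptor signal inside the cell had small differences. Of the G protein α subunits, 6 of 10 were above 0, with *Gnai1* (a Gi subunit) at 0.11 and an SE of 0.05 and *Gnaz* at -0.05 and an SE of 0.08. The groups did not overlap for *Gnai1*. Of the adenylyl cyclases and phospholipases C, 4 of 11 tested genes were above 0, with *Plcb4* at 0.09 and *Adcy9* at -0.06, each with an SE of 0.06. Of the protein kinase A subunits and cAMP phosphodiesterases, 9 of 14 were above 0. *Prkar1b*, a regulatory subunit of protein kinase A, had 0.09 with an SE of 0.06, *Prkaca*, a catalytic subunit, had -0.11 with an SE of 0.05, and *Pde7b*, which breaks down cAMP, had -0.26 with an SE of 0.11 (limma, unadjusted p = 0.044, adjusted p = 0.981). With normexp background correction the difference of *Pde7b* was -0.112. The list of receptor kinases, arrestins and RGS proteins, which end receptor signaling, had 13 of 16 genes above 0 and a median of 0.07. Its leading genes were *Rgs4*, at 0.13 with an SE of 0.07, and *Akap12*, at -0.04 with an SE of 0.06. *Rgs2*, which acts on Gq, was at 0.08 with an SE of 0.05. Leaving out 1 mouse moved some of these small values by over 1.5-fold: *Gnaz* was -0.10 without MS 7.1 and -0.0062 without control 8.5, *Adcy9* was -0.09 without control 6.2 and -0.03 without control 8.2, *Plcb4* was 0.05 without MS 7.2, *Prkar1b* was 0.05 without MS 7.6, and *Akap12* was -0.06 without MS 7.6 and -0.0033 without MS 7.2.

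**Figure D4:**
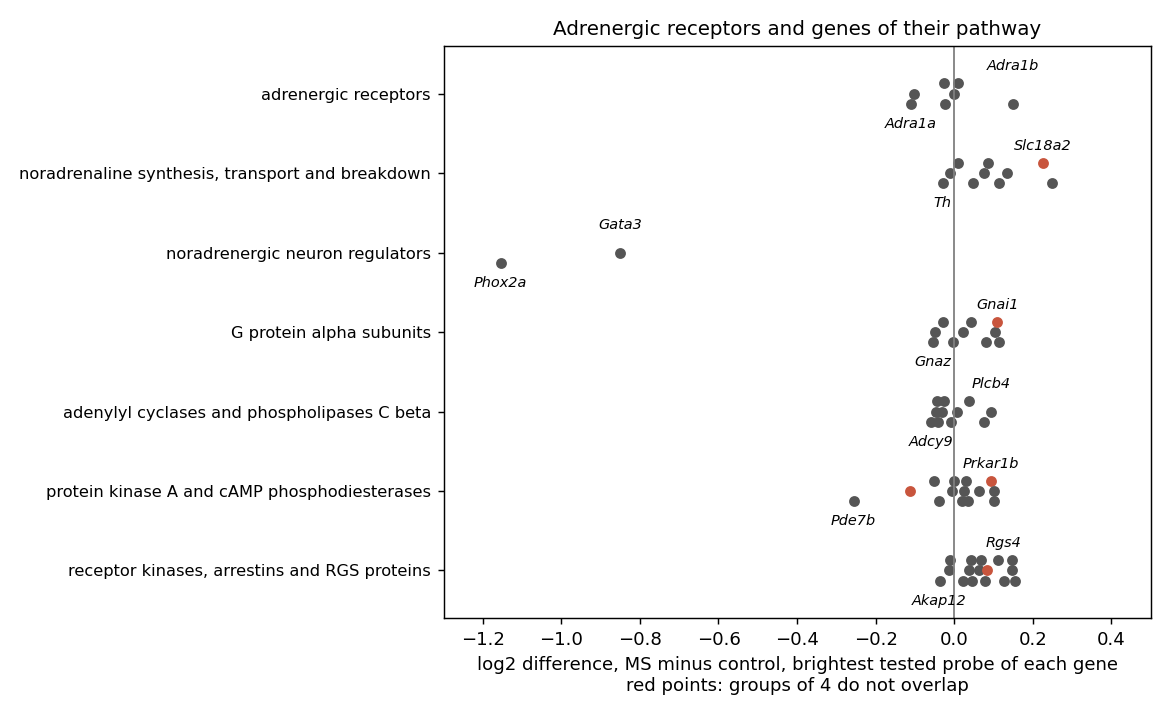
Difference of MS minus control on the log2 scale for the 7 tested adrenergic receptors and the 63 tested genes of 6 pathway lists, with 1 point per gene from its brightest tested probe. Red points are genes whose groups of 4 did not overlap, and the receptors lie between -0.11 and 0.15 with none in red.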

How the data were processed

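The authors deposited, for each array, the spot intensity read with Agilent Feature Extraction 10.10.1.1, with background subtracted and gradients removed within the array, and other columns that flag spots as outliers or well above background. A log2 table of 34970 probes was deposited as well; the sources used here do not state its normalization. Probe positions in the headers are on mm9, and genes were named by accession from a RefSeq table, or else by symbol.

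Values were computed with R 4.3.3, limma 3.58.1 and the package data.table (version 1.17.8). Control and outlier spots were left out, log2 intensities were averaged per probe (59305 spots, 55681 probes), and each array was centered on its 75th percentile. A probe flagged well above background on 4 or more of the 8 arrays was tested with lmFit and eBayes, two-sided, with Benjamini-Hochberg adjustment over all 37313 probes at 0.05, as in the paper's methods. The code was tested on simulated data. For pathway genes the brightest tested probe was used.

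Every receptor probe is named, from each pathway list the genes with the smallest p above and below 0 with *Th*, *Dbh* and *Slc6a2* (and a few that the text marks), and for each receptor the 3 most similar genes. The receptors and lists were chosen with earlier results of these data known. Alternatives were quantile scaling, normexp with an offset of 50, other filters, the authors' table, slide row and the first part of the mouse number as blocks, each row alone, and leaving out each mouse. The number of arrays limits the precision.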

Additional observations from a re-analysis of the deposited data

Results flagged for a closer look

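In 3 of the 24 groups of 4 values (12 probes, 2 groups each), 1 mouse lay so far from the others that its gap, divided by the range of the group, was above Dixon's 95% limit for 4 values. Chance gives about 1 in 20 groups. On the *Adra1a* probe, control 6.2 was at -4.26 with the next mouse at -4.61 (ratio 0.8413), and MS 7.6 was at -4.98 with the next at -4.57 (ratio 0.8667). On the *Adra1d* probe at base 2229, control 6.2 was at -6.61 with the next mouse at -6.12 (ratio 0.8377), and this probe was not well above background in control 6.2.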

How the results depend on the processing

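The number of receptor probes past the test was 0 in all 17 alternatives, and so was that of the pathway genes. Over all probes the number was 0 except in slide row 2 alone and with the first part of the mouse number as a random block, where it was 1 in each. In the fit with the random block, limma estimated a negative correlation, -0.198, among mice with the same first part. There 3460 probes had an unadjusted p under 0.05, against 1230 in the main fit. The cause of either call was not tested. Of 169 receptor differences computed under the alternatives, 142 kept their direction and 27 turned. The other filters and slide row as a block leave the difference itself unchanged. Their values are among those that kept their direction and could not have turned. With normexp, *Adra1a* came to 0.041, and *Adrb3* to 0.036 at base 1779 and 0.0022 at base 2715. *Adrb1* at base 2353 came to -0.0050 in the authors' table and -0.0052 with the mouse number as a block. In slide row 1 alone *Adra1a* was 0.12, *Adra1b* at base 2948 was -0.076 and *Adrb1* at base 380 was -0.027. In slide row 2 alone *Adra2a* was 0.12, *Adra2b* 0.051, *Adra2c* 0.11, *Adrb1* at base 2353 -0.100 and *Adrb3* at base 1779 0.043. Leaving out each mouse in turn gave -0.044 to 0.097 for *Adra1b* at base 2948, -0.031 to 0.032 for *Adra2a*, -0.092 to 0.052 for *Adra2b*, -0.084 to 0.018 for *Adra2c*, and for *Adrb1* -0.073 to 0.19 at base 380 and -0.032 to 0.063 at base 2353. The direction did not turn for *Adra1a* (-0.16 to -0.00033), *Adra1b* at base 2028 (0.053 to 0.21) or *Adrb3* (-0.38 to -0.075 at base 1779 and -0.16 to -0.039 at base 2715). The cause of these turns was not tested, and none of these probes had a main interval that left out 0. In the alternative without a filter neither probe of *Adra1d* passed the test.

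No paired analysis was possible because the groups share no mouse numbers. The probes of *Adra1d* and the coding probe of *Adrb3* are limited by their signal over background.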
